A study of Mus musculus with 6 samples.

Results

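The genes described here are 10 mouse counterparts of genes that carry risk for Alzheimer's disease in human genetic studies: Trem2, Tyrobp, Apoe, Cd33, Plcg2, Inpp5d, Abi3, Bin1, Picalm and Sorl1. They were found by symbol, and no measured value enters that rule. All 10 were present among the 15388 genes of the table and among the 15344 genes tested. RNA was taken from hippocampus of Cx3cr1-cre/ERT2+; NuTRAP+ mice, which carried 1 copy of a tamoxifen-inducible Cre driven by the Cx3cr1 promoter and 1 copy of the Cre-dependent NuTRAP reporter. All were given tamoxifen (Tam) on consecutive days at about 3 months of age, and tissue was taken weeks later. Recombined cells carry GFP on their ribosomes, and ribosomes pulled down with anti-GFP (translating ribosome affinity purification, TRAP) gave the Positive fraction, while Input was a portion of the same homogenate kept before the pulldown. Animals 201, 207 and 208 each gave 1 library of either fraction, so that genotype and treatment were shared by all 6 libraries and none of these lacked Cre or Tam. The Cx3cr1 promoter is also active in macrophages at the borders of the brain, so the tagged cells need not all be microglia. The study's methods name males and females, and the sex of each animal is not used here.

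Several of these genes act in microglia, the resident immune cells of the brain. TREM2 is a surface receptor for lipids and lipoproteins that signals through its adaptor TYROBP (DAP12), whose phosphorylated tail recruits SYK and leads to PLCG2. Human CD33 is a receptor with inhibitory motifs. INPP5D (SHIP1) removes a phosphate from a lipid messenger produced in such signalling. ABI3 belongs to the family of ABI adaptors of the WAVE complex, which drives actin branching. APOE is a lipid carrier made mostly by astrocytes in the healthy brain, and BIN1, PICALM and SORL1 act in membrane bending, clathrin-mediated uptake and endosomal sorting in many cell types. The comparison asked which of these mRNAs were enriched on ribosomes of Cx3cr1-lineage cells relative to whole hippocampus.

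Sequences upstream of the transcription start are shown for 6 members that span the observed range of enrichment, from Inpp5d, the highest, to Sorl1, the lowest. Promoters of RefSeq (GRCm38.p6, the same coordinates as the mm10 build of the files) were searched for 7 of the 10 members. They held no entry for Tyrobp and Abi3, and Bin1 was left out of the search and of its counts. Tyrobp, Abi3 and Bin1 are named only. Each run gives the 250 bases before the start, 5′ to 3′ on the gene's strand. Capitals mark GAGGAA or its reverse complement TTCCTC, the core letters bound by the myeloid factor PU.1 (gene Spi1), searched on both strands. The start that RefSeq gives for Cd33 lies inside the interval that the files give for the gene.

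Trem2, chr17:48346151-48346400, plus strand: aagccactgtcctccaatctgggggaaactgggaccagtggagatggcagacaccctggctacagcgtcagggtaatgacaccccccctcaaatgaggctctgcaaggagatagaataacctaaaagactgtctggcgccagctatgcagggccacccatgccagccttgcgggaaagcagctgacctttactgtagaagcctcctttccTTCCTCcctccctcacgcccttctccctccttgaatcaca
Inpp5d, chr1:87620062-87620311, plus strand: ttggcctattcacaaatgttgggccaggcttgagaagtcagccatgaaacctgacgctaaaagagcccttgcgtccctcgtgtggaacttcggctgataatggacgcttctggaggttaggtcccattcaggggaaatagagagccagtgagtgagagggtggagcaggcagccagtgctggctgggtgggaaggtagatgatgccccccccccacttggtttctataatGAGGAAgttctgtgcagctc
Cd33, chr7:43533172-43533421, minus strand: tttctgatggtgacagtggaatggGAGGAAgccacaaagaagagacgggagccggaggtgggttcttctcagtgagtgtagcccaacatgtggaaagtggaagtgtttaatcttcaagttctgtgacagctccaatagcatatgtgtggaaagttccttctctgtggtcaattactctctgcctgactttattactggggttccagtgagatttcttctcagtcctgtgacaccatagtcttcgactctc
Plcg2, chr8:117498025-117498274, plus strand: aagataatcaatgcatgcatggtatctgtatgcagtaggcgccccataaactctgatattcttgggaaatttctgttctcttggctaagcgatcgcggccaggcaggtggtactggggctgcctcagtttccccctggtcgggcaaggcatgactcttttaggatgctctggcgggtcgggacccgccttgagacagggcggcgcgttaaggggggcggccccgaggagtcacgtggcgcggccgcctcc
Picalm, chr7:90129963-90130212, plus strand: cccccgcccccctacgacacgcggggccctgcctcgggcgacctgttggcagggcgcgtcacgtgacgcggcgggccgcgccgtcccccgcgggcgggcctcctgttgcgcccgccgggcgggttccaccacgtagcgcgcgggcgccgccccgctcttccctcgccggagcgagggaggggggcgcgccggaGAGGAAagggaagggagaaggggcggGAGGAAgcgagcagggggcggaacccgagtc
Sorl1, chr9:42124298-42124547, minus strand: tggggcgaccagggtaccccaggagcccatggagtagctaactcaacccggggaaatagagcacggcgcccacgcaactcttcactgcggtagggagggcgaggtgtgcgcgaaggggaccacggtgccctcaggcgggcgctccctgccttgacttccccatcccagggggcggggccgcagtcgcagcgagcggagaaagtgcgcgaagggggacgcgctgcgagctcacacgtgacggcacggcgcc

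At least 1 start of 5 of the 7 members searched held these letters, namely Trem2, Inpp5d, Cd33, Picalm and Apoe. The match nearest to the start was that of Inpp5d, beginning 20 bases before it, followed by those of Picalm at 31 and 57 bases and that of Trem2, on the other strand, at 40 bases. In Cd33 it began 226 bases before the start. Plcg2, which was enriched over 5-fold, had no match in this window, and neither had Sorl1 at either of its starts, while Picalm had 2. Counted by window, since Apoe and Sorl1 have several starts, 6 of the 10 windows of these members held the letters on either strand, as did 23.3% of 32851 promoter windows of the same length. A match is a description of the letters and not of binding.

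Of the 10 members, 8 were higher and 1 lower in Positive than in Input, by the quasi-likelihood test of edgeR at an adjusted p-value under 0.05 over all genes (n = 3 per fraction), where 24.0% of all genes tested were higher and 22.0% lower. With either direction counted, 9 members differed, against 46.0% of all genes. Of all genes that differed, 52.2% were higher, or 41.6% with total count scaling, which left the member counts at 8 and 1. Over 5-fold enrichment was found for 6 members, namely Inpp5d, Abi3, Tyrobp, Trem2, Cd33 and Plcg2, against 3.75% of all genes. The 3 Positive libraries lay above all 3 Input libraries for 8 members, as for 29.0% of all genes, and below them for Sorl1, as for 27.6% of all genes. The median log2 fold change was 3.65 over the members and -0.012 over all genes. The members therefore fell into 6 genes enriched 10.4-fold to 23.0-fold, Picalm and Bin1 with smaller enrichment, and Apoe and Sorl1 near or below the level of Input. In such bulk fractions a smaller number of cells of a type and less RNA per cell cannot be told apart.

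**Figure D1:**
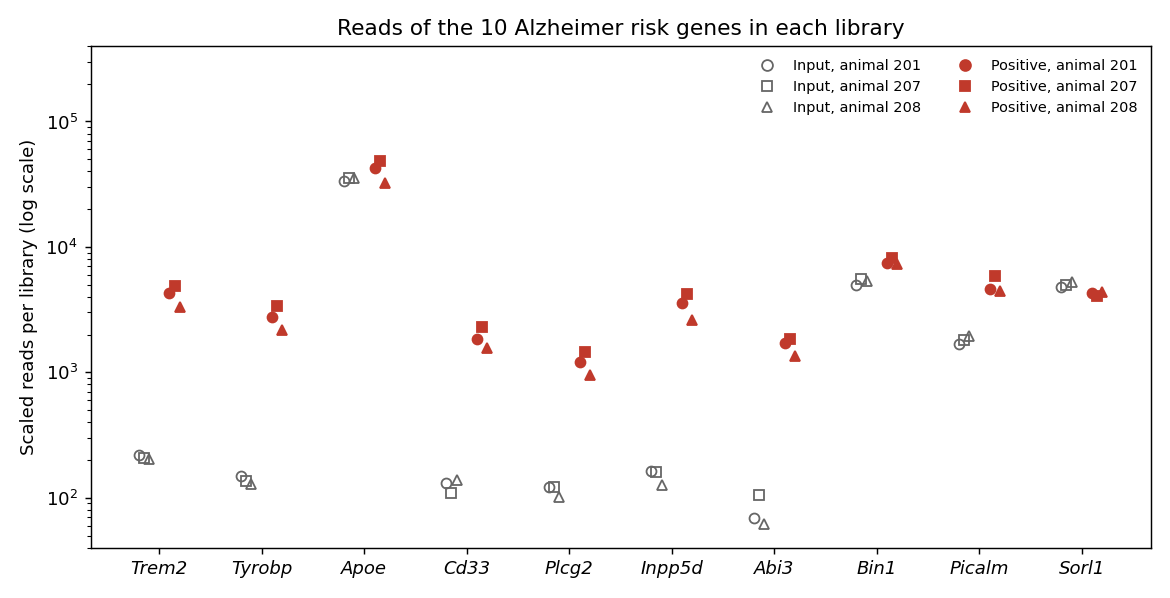
Scaled reads (raw reads divided by the size factor of the library, log axis) of the 10 genes in each of the 6 libraries. Open grey symbols are Input, filled red symbols are Positive, and the symbol shape gives the animal. Trem2, Tyrobp, Cd33, Plcg2, Inpp5d and Abi3 separate widely between fractions, while the Apoe library of animal 208 in Positive (32509.9) lies below the 3 Input libraries.

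The libraries held 14879734 to 17757918 reads. Marker lists placed the tagged cells. Of 238 microglial genes tested from the cell-sorting list used in the study, 234 were higher and 1 lower in Positive, with a median log2 fold change of 3.65. Trem2, Tyrobp, Plcg2, Inpp5d and Abi3 are themselves on that list, and these 5 with Cd33 are on the study's ribosomal-tagging list, so the lists are not independent of them. All 8 border macrophage markers were higher, with summed scaled reads of 226 to 279 in Input and 2764 to 6069 in Positive, and all 10 endothelial markers were higher, with sums of 2805 to 3230.4 and 6061 to 12257. Of 10 mural markers, 1 was higher and 1 lower. No marker of these lists was at 0 in every library. Of 3 monocyte markers tested, Ly6c2 was higher at few reads, with means of 7.29 in Input and 22.6 in Positive, and Vcan and Ace were lower. The other 5 of that list were not tested, so these markers do not show whether monocyte RNA rose or fell. The oligodendrocyte list fell, with 137 of 186 genes lower and a median of -0.78, as did the astrocyte list, with 85 of 138 lower and a median of -0.42. The neuronal list had 22 genes higher and 18 lower of 99, with a median of -0.0087. Its summed scaled reads were 397956 to 408505 in Input and 359193 to 407354 in Positive. Reads of neuronal markers thus stayed near the Input level. Of 8 markers of oligodendrocyte precursors, 7 were lower. The Positive library of animal 208 stood apart in vascular markers and, to a lesser degree, in the astrocyte and neuronal lists. Its endothelial median over Input was 1.09 against 2.19 and 2.15 in animals 201 and 207, and its mural median was -0.78 against 0.14 and 0.29. Its astrocyte median was -0.72 against -0.26 and -0.36, and its neuronal median was 0.15 against -0.093 and -0.051. Its oligodendrocyte median, -0.86, was nearer to those of animals 201 and 207, -0.77 and -0.70. The microglial medians of 3.56, 3.89 and 3.37 in animals 201, 207 and 208 did not set it apart. Nor did the border macrophage medians of 3.72, 4.45 and 3.52, where animal 207 was the more distant. Results that rest on the Positive library of animal 208 are given with and without it.

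Trem2 and Tyrobp, the receptor and its signalling adaptor, rose together. Trem2 (ENSMUSG00000023992, mm10 chr17:48346401-48354147, plus strand) had 218, 207 and 202 scaled reads in the Input libraries of animals 201, 207 and 208, and 4323, 4841 and 3323 in their Positive libraries. Every Positive library was thus far above every Input library, and animal 208 was the lowest in Positive. The mean ± SD of the 3 animals was 209 ± 8.04 for Input and 4162 ± 772 for Positive. The fitted log2 fold change was 4.31 ± 0.14 (SE of the fit), or 19.9-fold (edgeR adjusted p-value 2.14e-10). Tyrobp (ENSMUSG00000030579, chr7:30413760-30417585, plus strand) had 148, 137 and 129 scaled reads in Input and 2772, 3348 and 2174 in Positive, in the same order of animals. Its log2 fold change was 4.32 ± 0.15 (SE), or 20.02-fold (edgeR adjusted p-value 3.57e-10). The ratio of Trem2 to Tyrobp reads within a library, in which the scaling cancels, was 1.52 ± 0.050 for Input and 1.51 ± 0.059 for Positive (SD, n = 3), and the fractions overlapped. The receptor and its adaptor were therefore in the same read ratio in whole hippocampus and on the tagged ribosomes, to within the spread between animals.

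The receptor Cd33 (ENSMUSG00000004609, chr7:43524216-43544428, minus strand) was also enriched, though less than Trem2. It had 131, 109 and 139 scaled reads in Input and 1832, 2289.8 and 1571 in Positive. No Positive library came near the Input libraries. The log2 fold change was 3.91 ± 0.15 (SE), or 15.1-fold (edgeR adjusted p-value 5.32e-10). Reads of Cd33 per read of Trem2 were 0.602, 0.529 and 0.686 in Input against 0.424, 0.473 and 0.473 in Positive, so that the fractions did not overlap. An exact permutation test of 3 against 3 cannot go below 0.1, and this difference is given without a test. Siglech, a related receptor of the same family that pairs with Tyrobp, had a log2 fold change of 4.75 ± 0.15 (SE) and exceeded Cd33 in all 3 animals, by 0.85 ± 0.11 on the log2 scale (SD, n = 3).

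Enzymes downstream of the receptors differed in the size of their enrichment. Plcg2 (ENSMUSG00000034330, chr8:117498291-117635142, plus strand), the phospholipase that produces second messengers below SYK, had 123, 122 and 102 scaled reads in Input and 1207, 1447 and 958 in Positive. Its log2 fold change of 3.38 ± 0.16 (SE), or 10.4-fold, was the smallest of the 6 members over 5-fold (edgeR adjusted p-value 2.47e-09). Inpp5d (ENSMUSG00000026288, chr1:87620312-87720507, plus strand), the inositol lipid phosphatase, had 162, 162 and 127 scaled reads in Input and 3564, 4209.7 and 2627 in Positive. With 4.53 ± 0.17 (SE) on the log2 scale, or 23.0-fold, it had the largest fold change of the 10 members (edgeR adjusted p-value 5.32e-10), and 0.593% of all genes tested lay above it. Within a library, there were 0.770 ± 0.026 reads of Plcg2 per read of Inpp5d in Input and 0.349 ± 0.014 in Positive (SD, n = 3), and the fractions did not overlap. Against the median of the microglial list in the same animal, Plcg2 was lower in each animal, by 0.25 ± 0.09 on the log2 scale, and Inpp5d was higher in each, by 0.89 ± 0.09 (SD, n = 3). These distances depend on the list, since against the median of the ribosomal-tagging list they were -0.81 for Plcg2 and 0.33 for Inpp5d. The study chose that list for over 5-fold enrichment in ribosomal pulldowns, its own among them. Its median of 4.17 was above the 3.65 of the cell-sorting list, so distances to it are lower. How far the choice of genes raised that median was not tested. The sequences above show the core letters in the Inpp5d window and none in that of Plcg2, while Picalm, at 2.74-fold, had 2 matches. Whether these letters bear on the size of the enrichment was not tested.

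Of 23 relatives of the members listed, 18 were tested, and 12 were higher and 2 lower, with a median log2 fold change of 0.40. Over 5-fold were 6, namely Treml2, Siglece, Siglecf, Siglech, Cd22 and Bin2. Among all genes tested, 24.0% were higher, 22.0% lower and 3.75% over 5-fold higher. Treml2 was at 3.97 ± 0.32 (SE). Cd22, Siglece and Siglecf, relatives of Cd33, were at 4.11 ± 0.49, 4.23 ± 0.32 and 4.54 ± 0.47 (SE), above Cd33 at 3.91. Treml2, Siglecf and Cd22 had few Input reads, with means of 6.99, 4.68 and 4.85. The close relatives of Plcg2 and Inpp5d had smaller changes than Plcg2 and Inpp5d themselves. Plcg1, the broadly expressed phospholipase of the same subfamily, had 1453.5, 1446 and 1420.0 scaled reads in Input, 2244, 2139 and 1781 in Positive, and a log2 fold change of 0.51 ± 0.09 (SE, edgeR adjusted p-value 5.26e-04). Plcg2 exceeded it in each animal, by 2.85 ± 0.17 on the log2 scale (SD, n = 3). Inppl1 (SHIP2), the second SHIP phosphatase, had a log2 fold change of 0.59 ± 0.13 (SE, edgeR adjusted p-value 2.37e-03), and Inpp5d exceeded it by 3.92 ± 0.065 (SD, n = 3). In scaled reads per kilobase of principal transcript, Plcg1 was the higher of its pair in Input, at 282 against 26.9. In Positive it was at 402 against 280.2, but with the union of exons as length at 262 against 280.2, so that their order there depends on the length used. For the SHIP pair the order turned, since Inppl1 was at 113 and Inpp5d at 30.5 in Input, and Inpp5d was at 702 and Inppl1 at 169 in Positive, and it turned with the union of exons too.

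Abi3 (ENSMUSG00000018381, chr11:95830074-95842476, minus strand), the ABI family adaptor, had 68.7, 105 and 61.9 scaled reads in Input and 1707, 1828 and 1345 in Positive. Input of animal 207 was the highest of the 3, and no Positive library was near it. The log2 fold change was 4.37 ± 0.18 (SE), or 20.6-fold (edgeR adjusted p-value 7.14e-10). Abi1 rose by 0.40 ± 0.08 on the log2 scale and Abi2 fell by 0.34 ± 0.09 (SE, edgeR adjusted p-values 1.71e-03 and 0.011). The per-animal difference of Abi3 from Abi1 was 3.99 ± 0.39 and from Abi2 was 4.73 ± 0.27 (SD, n = 3). Of the family, Abi3 was the only member of 3 with over 5-fold enrichment. Reads of Abi3 per read of Trem2 numbered 0.38 ± 0.11 for Input and 0.392 ± 0.014 for Positive (SD, n = 3), with overlap between fractions.

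**Figure D2:**
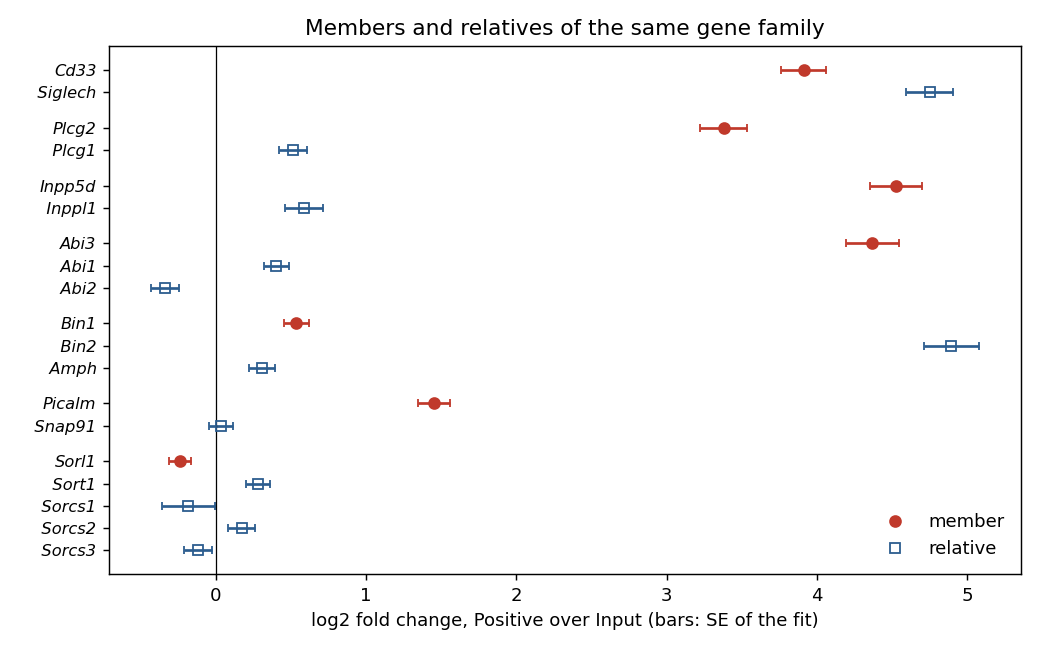
Log2 fold change, Positive over Input, of 7 members (red circles) and the relatives compared with them (open blue squares). Bars are the SE of the fit. Plcg2, Inpp5d, Abi3 and Picalm lie to the right of their relatives, while Bin1 at 0.54 lies far to the left of Bin2 at 4.89.

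Apoe (ENSMUSG00000002985, chr7:19696109-19699188, minus strand), the lipid carrier, did not pass the test. It had 33532, 35465 and 35484.5 scaled reads in Input and 42766, 48347 and 32509.9 in Positive. In animals 201 and 207 Positive was above Input, and in animal 208 it was below, with log2 ratios of 0.35, 0.45 and -0.13. The log2 fold change was 0.24 ± 0.13 (SE), with a 95% interval from -0.036 to 0.52 (edgeR adjusted p-value 0.141). Without the Positive library of animal 208 it was 0.39 ± 0.07 (SE) and passed (edgeR adjusted p-value 5.5e-04), so that the call rests on that library. Apoe is on the astrocyte list, whose median ratio was below that of Input in every animal, at -0.26, -0.36 and -0.72 on the log2 scale. Relative to that median Apoe was higher in each animal, by 0.67 ± 0.12 on the log2 scale (SD, n = 3), and 4 of the other 137 genes of the list had a larger fold change. It was lower than the microglial median in each animal, by 3.38 ± 0.15. In both fractions it was the most abundant member per kilobase, at 24735 ± 796 for Input and 29267 ± 5705 for Positive (SD, n = 3), and it ranked 9 in Input and 2 in Positive among 15326 genes with a transcript length (12 and 5 with the union of exons as length). The part of microglial, endothelial or astrocyte RNA in its level was not tested.

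Genes of lipoprotein handling showed no common direction. Of 19 listed, 16 were tested, and 5 were higher and 5 lower, with a median log2 fold change of -0.13. Among all genes tested, 24.0% were higher and 22.0% lower. The exporters Abca1 and Abcg1, which load lipid onto APOE, rose by 1.02 ± 0.13 and 0.70 ± 0.08 on the log2 scale, as did the nuclear receptor Rxra by 0.51 ± 0.09 (SE). The apolipoproteins Apod and Clu fell by 1.73 ± 0.19 and 0.62 ± 0.12, and the cholesterol-esterifying enzyme Lcat fell by 0.66 ± 0.18 (SE). Apod had 2654, 2820.5 and 2203 scaled reads in Input and 906, 923 and 479.7 in Positive.

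Picalm (ENSMUSG00000039361, chr7:90130213-90213465, plus strand), an adaptor of clathrin coats, rose to a lesser degree than the receptor and signalling genes. It had 1685, 1819 and 1939.9 scaled reads in Input and 4627, 5847 and 4427 in Positive. The fractions were well apart. The log2 fold change was 1.45 ± 0.11 (SE), or 2.74-fold (edgeR adjusted p-value 2.1e-07). Its neuronal relative Snap91 (AP180) had 5279, 5287 and 5359.9 scaled reads in Input and 5356, 5036 and 5904 in Positive, with a log2 fold change of 0.033 ± 0.081 (SE, edgeR adjusted p-value 0.767). Picalm exceeded it in each animal, by 1.41 ± 0.35 on the log2 scale (SD, n = 3). Picalm was below the microglial median in each animal, by 2.16 ± 0.049, and above that of the astrocyte, oligodendrocyte and neuronal lists. The endothelial median was above it in animals 201 and 207 and below it in animal 208, and whether endothelial RNA had a part in its enrichment was not tested.

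Bin1 (ENSMUSG00000024381, chr18:32377217-32435736, plus strand), a membrane-bending protein with isoforms in neurons, oligodendrocytes and microglia, had 4969, 5583 and 5301 scaled reads in Input and 7504, 8136 and 7345 in Positive. Input and Positive did not overlap, although the difference was small. The log2 fold change was 0.54 ± 0.08 (SE), or 1.45-fold (edgeR adjusted p-value 1.67e-04), and 14.7% of all genes tested lay above it. Counts were per gene, so isoforms cannot be told apart. Bin2, the relative expressed in blood-lineage cells, had 132, 76.6 and 103 scaled reads in Input and 3199, 3584 and 2444 in Positive, a log2 fold change of 4.89 ± 0.18 (SE). Amph, the neuronal relative, had 0.31 ± 0.09 (SE, edgeR adjusted p-value 0.0116). Per kilobase, Bin1 was at 3664 and Bin2 at 1511 in Positive, against 2527 and 51.0 in Input, so that Bin1 was the higher of the pair in either fraction. The part of RNA from untagged cells in these Positive levels was not tested, so the order within tagged cells is not given. Relative to the oligodendrocyte median of the same animal, which fell, Bin1 was higher by 1.31 ± 0.063, and relative to the neuronal median by 0.53 ± 0.19 on the log2 scale (SD, n = 3).

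Sorl1 (ENSMUSG00000049313, chr9:41964720-42124297, minus strand), a sorting receptor that carries cargo between endosomes and the Golgi, was the only member that fell. It had 4769, 4941 and 5212 scaled reads in Input and 4273, 4034 and 4346 in Positive. Each Positive library was below each Input library, by a small margin. The log2 fold change was -0.24 ± 0.08 (SE), or 84.8% of the Input level (edgeR adjusted p-value 0.0214). The call is weak, since it was lost without the Input library of animal 207 or 208, without the Positive library of animal 207, and in limma on the deposited normalized values (adjusted p-value 0.0566). Its direction was kept in all these fits, with -0.27 to -0.20 over the 6 fits that left out a library. Sort1, the related sorting receptor sortilin, rose by 0.28 ± 0.08 (SE, edgeR adjusted p-value 0.0121), and Sorl1 was below it in each animal, by 0.52 ± 0.16 on the log2 scale (SD, n = 3). Sorcs1, Sorcs2 and Sorcs3 did not pass the test, with log2 fold changes of -0.18, 0.17 and -0.12. Sorl1 was lower than the microglial median by 3.84 ± 0.29 (SD, n = 3), and 236 of the 238 microglial genes had a larger fold change.

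**Figure D3:**
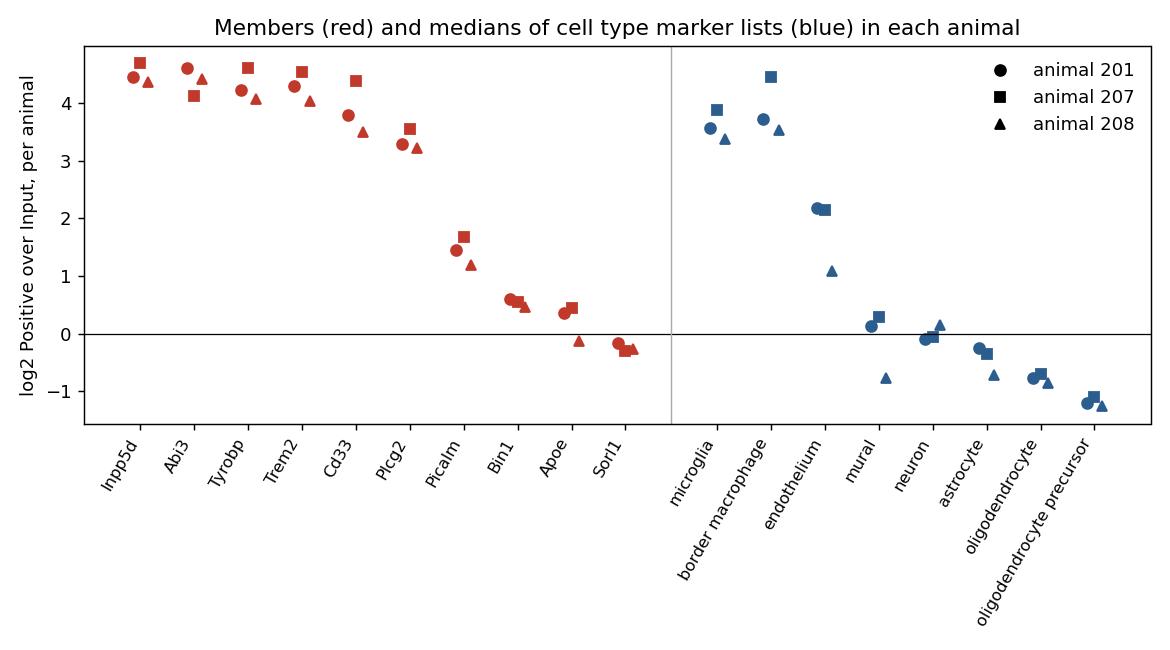
Log2 ratio of Positive over Input in each animal for the 10 members (red) and the median of each cell type marker list (blue). The symbol shape gives the animal. Inpp5d, Abi3, Tyrobp, Trem2, Cd33 and Plcg2 have ratios from 3.22 to 4.69, against medians of 3.37 to 3.89 for microglia and 3.52 to 4.45 for border macrophages, and Sorl1 lies between the neuronal and oligodendrocyte medians in animals 201, 207 and 208.

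Levels were compared between members per kilobase of the principal transcript of GENCODE. In Input the order was Apoe, Bin1, Sorl1, Tyrobp, Picalm and Trem2, followed by Inpp5d, Plcg2, Cd33 and Abi3 at 30.5, 26.9, 22.1 and 19.6 scaled reads per kilobase. Tyrobp (228 to 262), Picalm (205 to 236) and Trem2 (186 to 200) were neighbours, and the ranges of Tyrobp and Picalm overlapped. Those of Inpp5d, Plcg2, Cd33 and Abi3 also overlapped with their neighbours. In Positive the order was Apoe, Tyrobp, Trem2, Bin1, Inpp5d, Picalm, Abi3, Sorl1, Cd33 and Plcg2. The ranges of Tyrobp (3855 to 5937), Trem2 (3054 to 4449) and Bin1 (3513 to 3891) overlapped, as did those of Inpp5d with Picalm, Abi3 with Sorl1, Sorl1 with Cd33, and Cd33 with Plcg2. With the union of all annotated exons as length, an alternative added after the data had been seen, Tyrobp remained above Bin1 in Positive (4145 against 1861), but Trem2 fell below it (842). The first 6 places in Input were the same with either length. In mean level Tyrobp thus lay below Bin1 in Input and above it in Positive with either length, while the place of Trem2 in Positive depends on the length used.

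**Figure D4:**
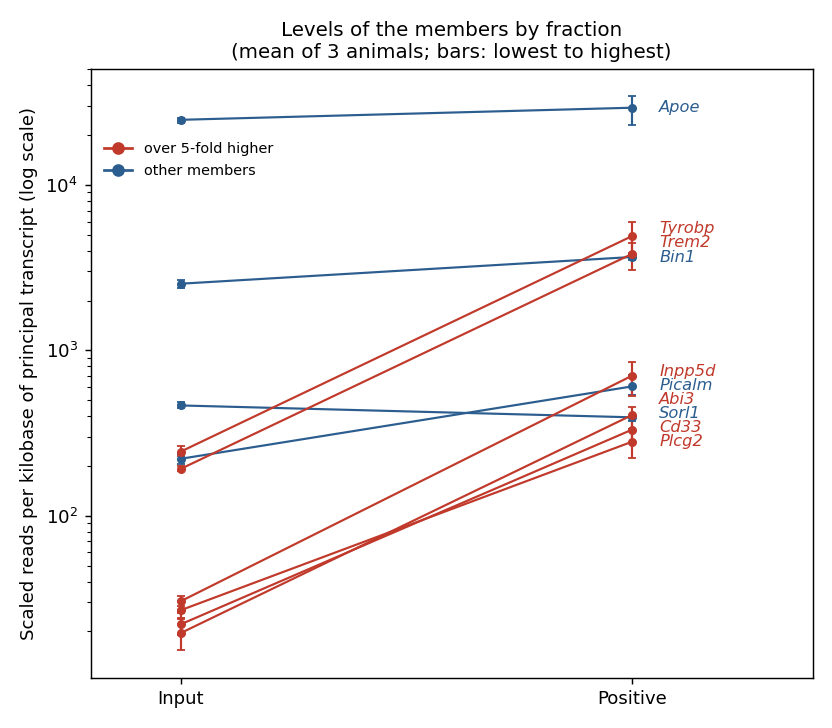
Scaled reads per kilobase of principal transcript (log axis) in Input and Positive, as the mean of 3 animals with bars from the lowest to the highest. The 6 members over 5-fold higher are red and the other members blue. The lines of Tyrobp, Trem2, Inpp5d and Abi3 cross a blue line, while those of Cd33 and Plcg2 stay below all blue lines. Apoe remains on top at 24735 in Input and 29267 in Positive.

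The remaining genes of each pathway were counted from lists. Of 29 genes listed around TREM2 and TYROBP signalling, 25 were higher and 0 lower in Positive, with a median log2 fold change of 1.64, and 13 were over 5-fold. The list is not confined to genes below the receptor, since it also holds the transcription factor Spi1 and the proteases Adam10 and Adam17. The largest changes were those of the phosphatase Ptpn6 (SHP-1), at 4.88 ± 0.17, the adaptor Pik3ap1, at 4.83 ± 0.18, and the myeloid transcription factor Spi1, at 4.79 ± 0.16 (SE). Spi1 had 60.4, 57.3 and 69.3 scaled reads in Input and 1690.4, 2051 and 1421 in Positive. The smallest among those that passed were Akt1 at 0.22 ± 0.07, Pik3r1 at 0.65 ± 0.09 and Grb2 at 0.70 ± 0.08 (SE), which are signalling genes used by most cells. The other 4 genes, Fyn, Vav3, Sos1 and Ptpn11, did not pass, with log2 fold changes of -0.13, 0.10, -0.11 and 0.08. With 24.0% of all genes higher and 3.75% over 5-fold as background, both shares of this list were larger, and no set test was made.

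Of 50 genes at other risk loci, 47 were tested, with 26 higher and 8 lower and a median log2 fold change of 0.40. Among all genes tested, 24.0% were higher and 22.0% lower. Apart from Spi1, which is also a risk locus, the largest changes under the naming rule were those of Ms4a6d at 4.61 ± 0.34 and the small GTPase Rhoh at 4.58 ± 0.33 (SE). The largest falls were those of the proteases Adamts4 and Ace and the heparan sulfate enzyme Hs3st1, by 1.71 ± 0.24, 0.93 ± 0.16 and 0.67 ± 0.16 on the log2 scale (SE). Adamts4 had 413, 277 and 315 scaled reads in Input and 145, 95.02 and 67.8 in Positive. Whether its fall was related to that of the oligodendrocyte list was not tested. Of 8 genes of familial disease and APP processing, 2 were higher and 0 lower, with a median log2 fold change of 0.097, or 0.020 with total count scaling. That share higher was near the 24.0% of all genes. Ncstn, a subunit of gamma-secretase, rose by 0.60 ± 0.08 on the log2 scale (SE). App, the amyloid precursor, had 24160.2, 23744 and 23235 scaled reads in Input and 25244, 23904 and 26188 in Positive, and did not pass.

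**Figure D5:**
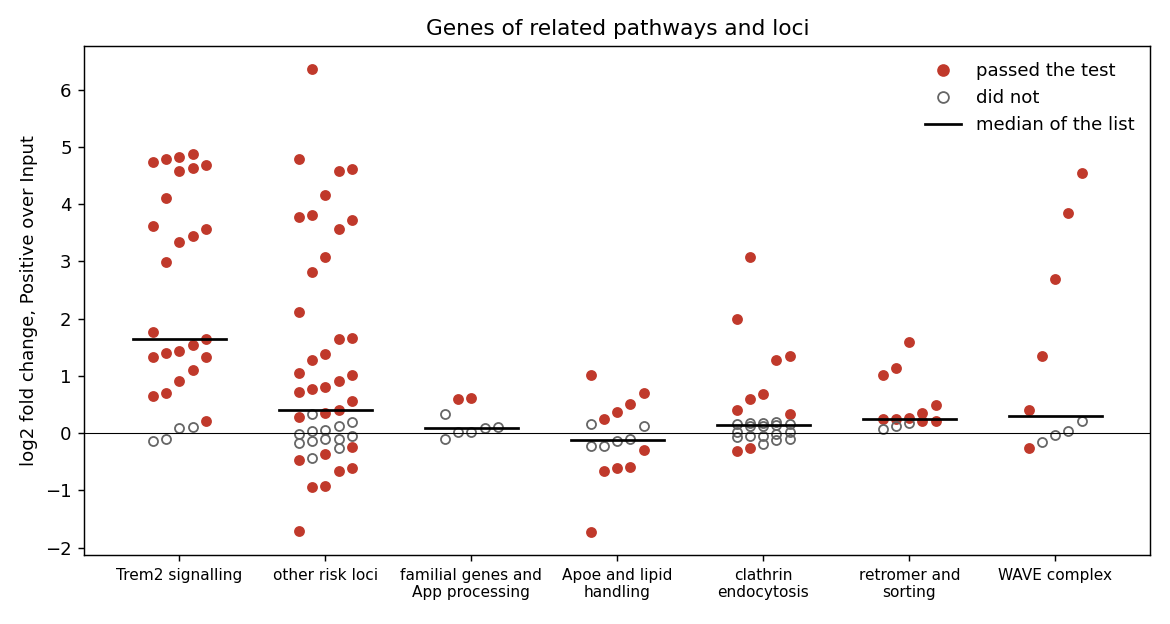
Log2 fold change, Positive over Input, of the genes tested in 7 lists of related pathways and loci. Filled red points passed the test (adjusted p-value under 0.05 over all genes), open grey points did not, and the black line is the median of the list. The Trem2 signalling list has its median at 1.64, and the other 6 lists have medians from -0.13 to 0.40.

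The machinery around Picalm, Sorl1 and Abi3 was mostly near the level of Input, with few members far above it. Of 27 genes of clathrin-mediated endocytosis, 8 were higher and 2 lower, with a median log2 fold change of 0.14. The share higher was near the 24.0% of all genes tested, and the share lower was below their 22.0%. The largest were the Rab5 exchange factor Rin3 at 3.07 ± 0.23, the adaptor Dab2 at 1.98 ± 0.18 and the dynamin Dnm2 at 1.34 ± 0.13 (SE). The neuronal dynamin Dnm1 had 0.19 ± 0.09 (SE) and did not pass. Ap2s1 and Synj2 were lower, by 0.31 ± 0.12 and 0.25 ± 0.08, and Itsn2 was the smallest of the higher genes at 0.34 ± 0.08 (SE). The 2 lower calls were reduced to 1 without the Input library of animal 207 or the Positive library of animal 201, and to 0 without the Input library of animal 208 or the Positive library of animal 207. Of 13 genes of retromer and sorting, 10 were higher and 0 lower, with a median of 0.24, against the same shares of all genes. The sorting nexins Snx5, Snx2 and Snx6 led with 1.60 ± 0.11, 1.14 ± 0.09 and 1.01 ± 0.11 (SE), while Vps26b, Snx1 and Vps29 were at 0.22 ± 0.08, 0.22 ± 0.08 and 0.24 ± 0.08. Only 5 of these 13 passed with total count scaling, and 5 or 6 without the Input library of animal 207 or 208 or the Positive library of animal 201 or 207, so that the smaller of these changes are not firm calls.

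In the WAVE complex and its GTPases, 5 of 10 genes were higher and 1 lower, with a median of 0.30. Among all genes tested, 24.0% were higher and 22.0% lower. The higher genes included Nckap1l (HEM1), the blood-lineage subunit, with 151, 164 and 127 scaled reads in Input and 3411, 4222 and 2729.5 in Positive, a log2 fold change of 4.54 ± 0.16 (SE). Its relative Nckap1 had 0.037 ± 0.094 (SE) and did not pass. Rac2 and Wasf2 followed with 3.85 ± 0.25 and 2.69 ± 0.14, and Cyfip1 and Rac1 with 1.35 ± 0.11 and 0.40 ± 0.08 (SE). Wasf3 fell by 0.26 ± 0.08 (SE), a call lost without the Input library of animal 207 or 208 or the Positive library of animal 201. Abi3 and Nckap1l thus had fold changes of like size, 4.37 and 4.54.

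For each member, the genes with the most similar ratios over the 3 animals were sought among 12112 genes that averaged 100 scaled reads or more. The measure was the root mean square difference of the 3 log2 ratios. Close to Trem2 was Cd86 (0.090), and nearest to Tyrobp were Myo1f (0.09) and Rnase4 (0.10). Entpd1 (0.09) and Fli1 (0.10) were nearest to Cd33, and Rab3il1 (0.05) and Csf3r (0.06) to Plcg2. Inpp5d had Crybb1 (0.0024) and the WAVE subunit Nckap1l (0.04) as nearest genes. For Abi3 no gene lay within 0.1, and the nearest were Tbxas1 (0.17) and Fcgr2b (0.19). Cnppd1 and Bak1 were nearest to Bin1, Srgap2 and Trf to Picalm, Pcdhga5 and Lrrcc1 to Apoe, and Dip2a and Thyn1 to Sorl1. There were 407 genes within 0.1 of Sorl1 and 193 within 0.1 of Bin1, against 3 for Trem2 and 1 for Tyrobp.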

How the data were processed

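RNA of the Input and Positive TRAP fractions of 3 animals was sequenced from directional, poly(A)-selected libraries. The authors aligned reads with strand to mm10 in Strand NGS, counted them per gene and kept those that reached 20 raw reads throughout 1 or both fractions. The deposited raw columns are expected counts (estimated counts that need not be whole), and the deposited normalized columns are log2 values scaled with DESeq size factors. Groups came from the fraction label, and 0 columns were left unmapped.

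Expected counts were rounded and tested with edgeR 4.0.16 (quasi-likelihood, R 4.3.3), unpaired as in the study's methods, with median-of-ratios scaling over all genes. Genes over 20 scaled reads throughout 1 or both fractions were tested, and p-values were adjusted by Benjamini-Hochberg. Reads carry no molecular identifiers. Per-animal ratios used a pseudocount of 1. Transcript lengths were from GENCODE vM21. The fractions of an animal share that animal, so its number pairs the samples. Their deviations from the fraction means correlated with r of 0.273, 0.0847 and 0.15 over 12122 genes. On simulated data of 14856 to 14886 genes with 200 changed, 92.9% to 96.9% of those tested were called, and 5.00% to 11.5% of the calls were unchanged genes. The upper end of that share is above the threshold of 0.05. In the data far more genes differed, 46.0%, with 22.0% lower, so the simulation does not give the share of false calls there.

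Members and lists were chosen with earlier results of these data known. Genes named are the members, the relatives compared with them, up to 3 largest and 3 smallest changes per list among genes that passed, averaged 100 scaled reads or more and had 1 direction in 3 animals, and the 2 genes nearest to each member. Some genes that this rule took are not reported here. Beyond this rule, and chosen with their values in view, are the 4 signalling genes that did not pass, App, Dnm1 and Nckap1. So are the further relatives Treml2, Siglece, Siglecf and Cd22 and the monocyte markers Ly6c2 and Vcan. Adam10 and Adam17 are named to describe their list. Alternatives were TMM and total count scaling, DESeq2 1.42.0, limma 3.58.1 on the deposited log2 values, no filter, a filter at 100 scaled reads, a replicate block, and leaving out each library. For per-animal ratios they were pseudocounts of 0.1 and 5, leaving out each animal, and the ribosomal-tagging list.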

Additional observations from a re-analysis of the deposited data

How the results depend on the processing

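With the animal as a replicate block, 8 members were higher and 1 lower, as without it, and 7566 genes differed in place of 7054. The log2 fold changes under the replicate block were 4.30 for Trem2, 0.22 for Apoe and -0.24 for Sorl1, and the block changed no call of a member or a list count by over 1.5 times. Total count scaling turned the split of all genes that differed from 52.2% higher to 41.6% higher. No member changed direction under any alternative tried. With limma on the deposited values, Sorl1 was at -0.26 and did not pass, so 0 members were lower. DESeq2 called 6682 genes.

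Leaving out each library in turn gave 5536 to 7256 genes, 8 to 9 members higher and 0 to 1 lower. Over these fits Apoe ranged from 0.11 to 0.39 and Sorl1 from -0.27 to -0.20. For Trem2 signalling 0 to 1 genes were lower, the 1 without the Positive library of animal 208. Other risk loci had a median of 0.39 to 0.47, and genes of familial disease and APP processing 0.067 to 0.14. The median of the lipoprotein list was -0.16 to -0.028, the latter without the Positive library of animal 208. Clathrin genes lower numbered 0 to 3, retromer genes higher 5 to 9, and WAVE genes lower 0 to 1.

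Total count scaling gave medians of 0.32 for other risk loci, 0.020 for genes of familial disease and APP processing, -0.20 for lipoprotein genes, 0.063 for clathrin genes, 0.16 for retromer genes and 0.22 for WAVE genes. It gave 1 Trem2 signalling gene lower, 5 retromer genes higher and 2 WAVE genes lower. With limma, 3 lipoprotein genes were higher, 0 clathrin genes lower and 5 retromer genes higher. The ribosomal-tagging list, whose median is higher, was also used in place of the cell-sorting list. Cd33 then lay below the microglial median, at -0.28, where it had been above it, at 0.28. Plcg2 moved from -0.25 to -0.81 and Inpp5d from 0.89 to 0.33.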
